A study of Mus musculus with 18 samples.

Results

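The genes described here carry the insulin signal in liver and respond to it. They are the insulin receptor (Insr), its docking proteins (Irs1 and Irs2), the regulatory subunit of phosphoinositide 3-kinase (Pik3r1), the kinases Akt1 and Akt2, the transcription factors Foxo1 and Foxo3, and the secreted FOXO1 target Igfbp1. These 9 genes of the 40840 counted were named by symbol, not by a threshold on their values, and all 9 had enough reads to be tested in both models. Liver RNA was sequenced from ovariectomized female C57BL/6 mice of 2 obesity models. DIO mice were wild-type and were fed a high-fat diet, in which fat gave 45% of calories and cholesterol made up 0.2%. The ob/ob mice lacked leptin and ate a normal AIN-76A diet. In each model, mice received PaPE-1 (300 µg per kg per day), estradiol (E2, 5 µg per kg per day) or vehicle (a mixture of DMSO, ethanol and saline) from an osmotic minipump for 6 weeks, and each group has 3 libraries, 18 in all. PaPE-1 is an estrogen receptor ligand made by rearranging elements of the steroid structure of E2, and its dose differed from that of E2, so the compounds are set side by side as given. The labels call the replicates biological, every mouse lacked its ovaries, and the age of the mice and whether they had been fed or fasted at collection are not given in the sources used here.

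Insulin binds its receptor, which phosphorylates IRS1 and IRS2. These recruit phosphoinositide 3-kinase, whose lipid product activates AKT, and AKT phosphorylates FOXO1 and keeps it out of the nucleus. In fasting liver, where insulin is low, FOXO1 stays nuclear and raises IGFBP1, IRS2 and genes of glucose production, so mRNA of these targets is widely read as an inverse measure of insulin action. Signalling runs through phosphorylation, which mRNA levels do not record.

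Short promoter stretches are shown for 3 of the 4 members with a match to letters that FOXO factors are known to prefer, because Igfbp1 and Irs2 are the best known hepatic FOXO1 targets among them and Irs1 is the other docking protein. The letters searched, on both strands, were GTAAACA and CAAAACA. The sequences come from RefSeq promoters on GRCm38.p6, which reach 250 bases before to 50 bases after a start. Each is written 5′ to 3′ along the gene, and capitals mark a match.
Igfbp1 (chr11:7197639-7197725, plus strand): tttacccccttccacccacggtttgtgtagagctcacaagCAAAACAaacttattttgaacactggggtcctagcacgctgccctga
Irs2 (chr8:11008920-11009006, minus strand): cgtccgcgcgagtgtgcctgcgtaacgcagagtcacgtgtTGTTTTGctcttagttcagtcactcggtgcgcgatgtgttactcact
Irs1 (chr1:82291425-82291590, minus strand): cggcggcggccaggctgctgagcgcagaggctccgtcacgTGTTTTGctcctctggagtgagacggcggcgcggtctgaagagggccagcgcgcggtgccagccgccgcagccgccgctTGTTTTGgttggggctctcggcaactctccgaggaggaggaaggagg

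The Igfbp1 promoter has CAAAACA 108 bases upstream of the start, and Irs2 has it on the opposite strand (read here as TGTTTTG) 37 bases upstream. Irs1 has it on the opposite strand 111 and 32 bases upstream. One of the 2 Akt1 promoters holds GTAAACA on the opposite strand 161 bases upstream, and none of the promoters of Pik3r1 (2), Akt2 (4), Foxo1 (1) or Foxo3 (1) has a match. In all, 4 of the 13 promoters found for 8 members hold a match, and 9.63% of the 32851 RefSeq promoters do. GTAAACA alone is in 3.65% of them, CAAAACA in 6.28%, and 0.877% hold 2 or more matches as Irs1 does. A match is a description of these letters and not a measured site.

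Total counts ran from 16651616 to 21703791 per library in DIO liver and from 10470665 to 17021370 in ob/ob liver. Levels are CPM, read counts scaled to the TMM-adjusted size of each library, and changes are log2 fold changes of edgeR's quasi-likelihood fit over the 9 libraries of a model, with their standard error (SE). A change was called at an adjusted p under 0.05 over all genes tested, 13884 in DIO and 13433 in ob/ob liver. With 3 livers per group, the smallest p of an exact permutation test is 0.1. Hepatocyte markers were abundant in every library (summed levels of 88251 to 163913 CPM), and adipocyte markers were at or near 0. Bulk liver cannot tell fewer cells of a type apart from less RNA per cell. The model cannot be told apart from how its libraries were made, so levels are compared only within a model.

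Levels per kb of exonic length placed the members in an order within the vehicle liver of each model, and these orders were not tested against each other. Igfbp1 stood highest in ob/ob vehicle liver at 88.2 ± 43.7 CPM per kb (SD, n = 3), above Akt1 at 17.9 ± 0.59. Insr (9.35), Pik3r1 (8.50), Akt2 (8.06) and Foxo1 (7.12) followed with ranges that overlapped from each to the next, then Foxo3 (5.12), Irs1 (2.44) and Irs2 (1.46), each below the gene before it in every library. In DIO vehicle liver Akt1 had the highest mean, at 18.6 ± 2.15 CPM per kb (SD, n = 3). Its libraries, at 16.7 to 21.0 CPM per kb, lay inside the wide range of Igfbp1, 6.41 to 26.7 CPM per kb. Insr (15.1), Igfbp1 (14.7) and Akt2 (12.1) followed with ranges that overlapped from each to the next, and Akt2 stood above Foxo3 (7.72) in every library. Foxo3 stood above Pik3r1 (6.10), whose range overlapped that of Foxo1 (6.06). Irs1 (2.77) and Irs2 (2.69) were lowest in this model and overlapped. Both docking proteins were thus the least abundant members per length in both models.

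The members also differed in how much they varied over the libraries of a model. This spread pools the PaPE-1, E2 and vehicle groups, so it includes differences between groups as well as between mice. Over the 9 libraries of a model, the SD of log2 CPM was 1.17 for Igfbp1 in DIO and 0.70 in ob/ob liver, the widest in each model. Akt2 was the narrowest in DIO liver (0.13) and Akt1 in ob/ob liver (0.10).

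**Figure D1:**
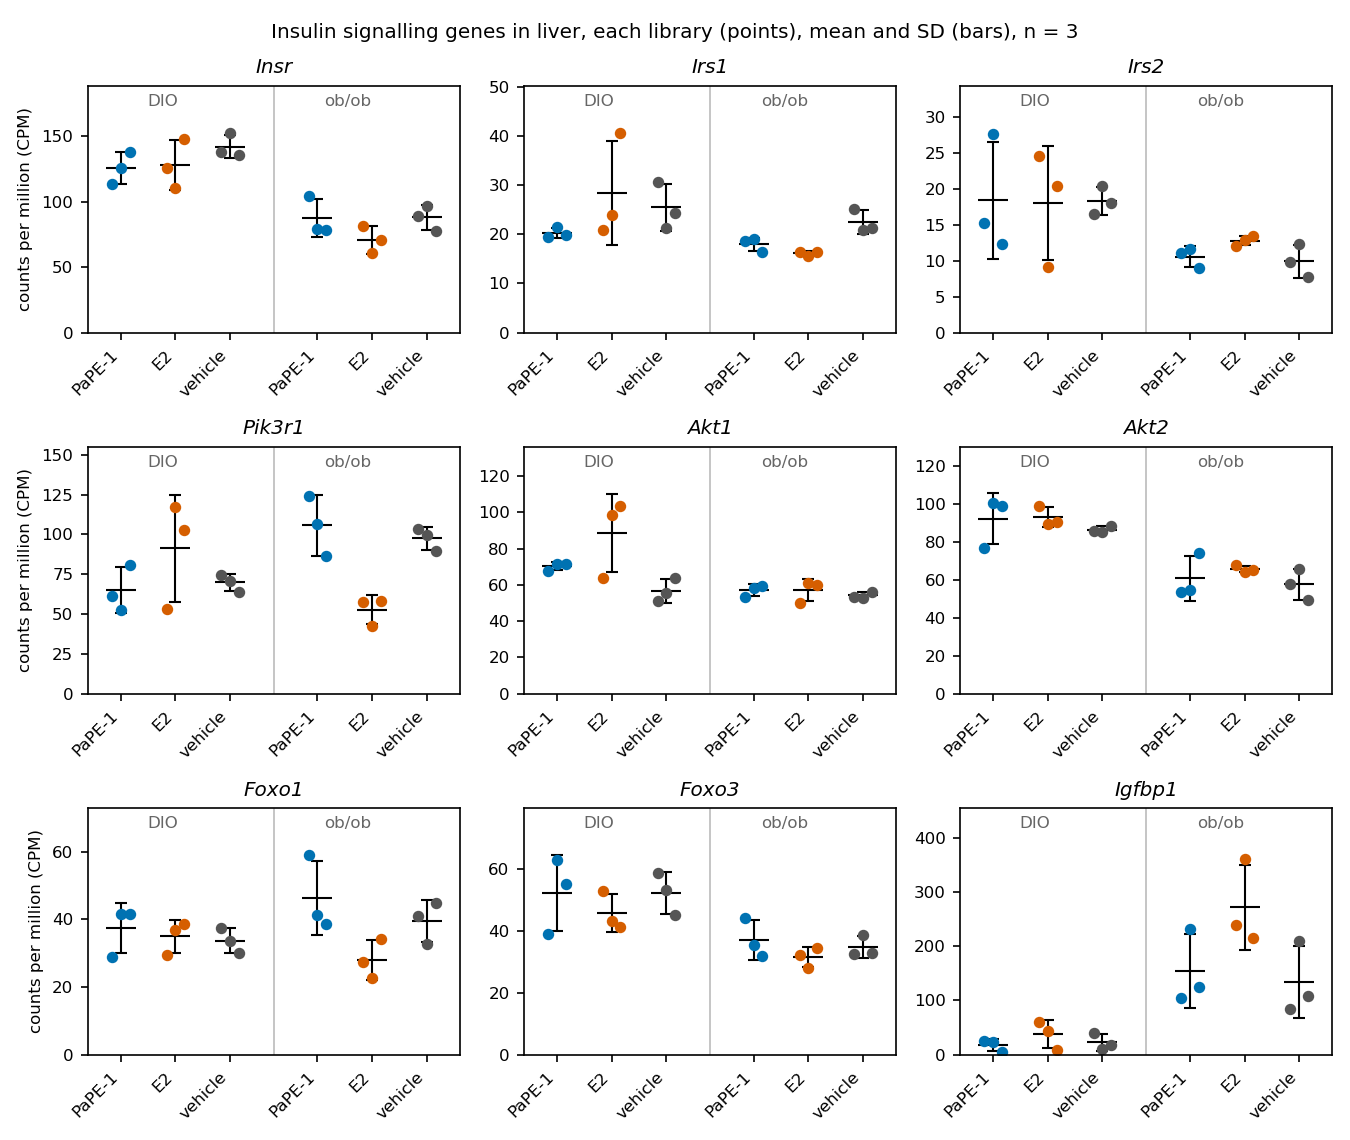
Level of each member in CPM on the vertical axis (linear, starting at 0) for PaPE-1, E2 and vehicle, in DIO (left) and ob/ob liver (right). Points are libraries and bars the mean and SD of 3; Pik3r1 in ob/ob liver is at 42.4 to 58.5 CPM under E2 and at 86.4 CPM or more in the PaPE-1 and vehicle libraries.

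Calls among the members were made only in ob/ob liver, in the comparisons of E2 with vehicle and of PaPE-1 with E2. Under E2, Pik3r1 and Irs1 fell relative to vehicle and no member rose, so 2 of 9 were called lower where 12.3% of all genes tested were lower and 9.81% higher. The libraries of the E2 and vehicle groups did not overlap for 3 of 9 members (33.3%), against 41.5% of all genes. PaPE-1 liver had no call against vehicle. Against E2, Pik3r1 and Foxo1 were higher under PaPE-1 and none was lower, which is 2 of 9 members called higher beside 10% of all genes higher and 7.45% lower. Groups did not overlap for 3 members (33.3%), against 37.4% of all genes. Both comparisons use the same E2 libraries.

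Markers of some cell types, though not of all, moved with the same E2 libraries. Summed endothelial markers in ob/ob liver were at 179 to 215 CPM under PaPE-1, 355 to 454 CPM under E2 and 204 to 226 CPM under vehicle. Macrophage markers summed to 195 to 293 CPM under PaPE-1, 390 to 542 CPM under E2 and 201 to 269 CPM under vehicle. Neutrophil markers summed to 2.77 to 60.2 CPM under PaPE-1, 88.2 to 346 CPM under E2 and 5.12 to 6.03 CPM under vehicle. Hepatocyte markers summed to 96678 to 118610 CPM under PaPE-1, 146624 to 163913 CPM under E2 and 88251 to 117386 CPM under vehicle. E2 raised 8 of 10 endothelial, 5 of 8 macrophage, 7 of 7 neutrophil and 5 of 10 hepatocyte markers relative to vehicle and lowered 1 hepatocyte marker. Of all genes, 9.81% were higher and 12.3% lower in that comparison. E2 against vehicle called 1 of 6 tested lymphocyte markers higher, and 0 of 7 stellate cell, 0 of 6 cholangiocyte and 0 of 4 erythroid markers. Erythroid markers summed to 319 to 2298 CPM under PaPE-1, 395 to 659 CPM under E2 and 231 to 432 CPM under vehicle. For PaPE-1 against vehicle, 4 of 4 erythroid markers had an unadjusted p under 0.05 and were higher, beside 2.65% of all genes in either direction, and 0 were called. The part of these shifts in the changes of the members was not tested.

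Pik3r1 (chromosome 13, 101817269 to 101904725, minus strand) had the smallest adjusted p among the members. Here and below, positions of genes are on GRCm39. It encodes the regulatory subunit that docks the catalytic subunit of phosphoinositide 3-kinase onto IRS proteins. Its level in ob/ob liver was 106, 86.4 and 124 CPM under PaPE-1 and 57.5, 42.4 and 58.5 CPM under E2, against 99.4, 89.5 and 104 CPM under vehicle. Every E2 library was below every other library, and PaPE-1 libraries lay on both sides of the vehicle libraries. The log2 fold change of E2 against vehicle was −0.89 (SE 0.15, adjusted p 0.0037), a level 1.85-fold lower. PaPE-1 was 2.00-fold above E2 (log2 fold change 1.002, SE 0.15, adjusted p 0.0028), and its difference from vehicle was 0.12 with a 95% interval of −0.21 to 0.44. Both calls held in all 16 alternative analyses that kept the threshold of adjusted p under 0.05, with log2 fold changes of −0.97 to −0.74 for E2 against vehicle and 0.86 to 1.14 for PaPE-1 against E2. At a fold over 2 with unadjusted p under 0.05, the call for E2 against vehicle was lost. The tallies of 16 below count the same alternatives, without that fold threshold.

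In DIO liver the E2 libraries for Pik3r1 split widely. Pik3r1 had 61.4, 52.6 and 80.7 CPM under PaPE-1 and 103, 53.1 and 118 CPM under E2, against 74.8, 71.0 and 64.1 CPM under vehicle. The second E2 library was below every vehicle library while the other E2 libraries were above them. Neither E2 (log2 fold change 0.38, SE 0.26, adjusted p 1.0) nor PaPE-1 (−0.11, SE 0.26, adjusted p 0.84) passed the test against vehicle. Without the second E2 library, Pik3r1 was lower under PaPE-1 than under E2 (−0.77, adjusted p 0.035), in a comparison that then called 361 genes higher and 435 lower.

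The receptor and its docking proteins did not move as a group in ob/ob liver. Insr (chromosome 8, 3200922 to 3329649, minus strand) had 79.5, 78.4 and 104 CPM under PaPE-1 and 81.7, 60.5 and 70.7 CPM under E2, against 97.2, 77.9 and 89.4 CPM under vehicle. The groups overlapped, and the E2 difference from vehicle of −0.31 (SE 0.15) did not pass the test (adjusted p 0.13). For PaPE-1 the difference from vehicle was −0.01 with an interval of −0.32 to 0.30. In DIO liver Insr lay between 111 and 153 CPM in all 9 libraries, and no comparison passed the test.

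Irs1, the docking protein that is best known in muscle and fat and also acts in liver, was lower under E2 in ob/ob liver. Irs1 (chromosome 1, 82210826 to 82269160, minus strand) had 18.9, 16.4 and 18.5 CPM under PaPE-1 and 16.4, 15.6 and 16.3 CPM under E2, against 20.8, 21.2 and 25.2 CPM under vehicle. The E2 libraries lay within 1 CPM of each other and below every vehicle library. The log2 fold change of E2 against vehicle was −0.48 (SE 0.12, adjusted p 0.016), a level 1.39-fold lower. The call was lost when each library's trend on gene length was removed (−0.33, adjusted p 0.068) and without the second E2 library, the third E2 library or the third vehicle library, with an adjusted p of up to 0.072, and held in 12 of 16 alternatives. It was also lost at a fold over 2. PaPE-1 libraries were also below every vehicle library. That difference of −0.32 (SE 0.12, unadjusted p 0.019) did not pass the test over all genes (adjusted p 1.0), and PaPE-1 and E2 differed by 0.15 with an interval of −0.11 to 0.42. In DIO liver Irs1 had 19.5, 21.4 and 19.9 CPM under PaPE-1, 40.5, 20.8 and 23.9 CPM under E2 and 30.6, 21.3 and 24.3 CPM under vehicle. The first E2 library was the highest of the model and the groups overlapped.

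Irs2, the docking protein that FOXO1 raises in fasted liver, had no call. Irs2 (chromosome 8, 11034681 to 11058929, minus strand) had 11.7, 8.95 and 11.1 CPM under PaPE-1 and 12.1, 12.8 and 13.4 CPM under E2 in ob/ob liver, against 12.3, 7.68 and 9.81 CPM under vehicle. The log2 fold change of E2 against vehicle was 0.36 (SE 0.17, adjusted p 0.15), with the opposite sign to Irs1. PaPE-1 libraries were below every E2 library, with a difference from E2 of −0.27 (SE 0.17, adjusted p 0.29). In DIO liver Irs2 ran from 9.10 to 27.6 CPM, with both ends of that range in treated mice. The vehicle libraries were at 16.5, 20.3 and 18 CPM, inside the range of each treated group, and neither compound passed the test (0.02 under PaPE-1 and −0.02 under E2, each with an SE of 0.37).

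The AKT kinases had no call in either model. Akt2 (chromosome 7, 27290977 to 27340251, plus strand) is the form on which insulin action in liver chiefly depends. The ob/ob libraries had 54.3, 74 and 53.4 CPM under PaPE-1, 67.5, 64.2 and 65.0 CPM under E2 and 65.6, 49.4 and 57.7 CPM under vehicle. These ranges overlapped, and the log2 fold change was 0.07 for PaPE-1 (interval −0.23 to 0.37) and 0.19 for E2 (interval −0.11 to 0.49). In DIO liver Akt2 had 90.1, 98.9 and 89.4 CPM under E2, all above the vehicle libraries at 85.4, 85.0 and 88.4 CPM, though by only 0.11 on the log2 scale (SE 0.14).

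Akt1 (chromosome 12, 112620255 to 112641318, minus strand), the broadly expressed form, was nearly level in ob/ob liver and spread out in DIO liver. All 9 ob/ob libraries lay between 50.1 and 61.1 CPM, and both differences from vehicle were 0.07 with an interval of −0.16 to 0.31. In DIO liver Akt1 had 67.6, 71.5 and 71.5 CPM under PaPE-1, 104, 63.9 and 98.7 CPM under E2 and 50.8, 55.3 and 63.7 CPM under vehicle. Every treated library was above every vehicle library, the second E2 library only just. Under E2 the log2 fold change was 0.65 (SE 0.17), with an unadjusted p of 0.0027 that did not pass over all genes (adjusted p 0.78). Under PaPE-1 it was 0.31 (SE 0.17, adjusted p 0.32). Without the second E2 library, Akt1 rose under E2 by 0.84 on the log2 scale (adjusted p 0.012) and was lower under PaPE-1 than under E2 (−0.53, adjusted p 0.046). Without that library E2 against vehicle called 67 genes higher and 66 lower. Macrophage markers in DIO liver summed to 294 to 429 CPM under PaPE-1, 447 to 594 CPM under E2 and 302 to 382 CPM under vehicle. Of the macrophage markers, 7 of 8 had an unadjusted p under 0.05 for E2 against vehicle, beside 5.22% of all genes. Other summed markers were also apart in these groups. Hepatocyte markers were at 108403 to 136624 CPM under E2 and 95796 to 104247 CPM under vehicle. Stellate cell markers were at 342 to 361 CPM and 384 to 452 CPM, and lymphocyte markers at 5.82 to 7.09 CPM and 7.71 to 11.2 CPM. The part of these marker shifts in the Akt1 values was not tested.

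Foxo1, the main FOXO factor of hepatic glucose production, differed between the compounds in ob/ob liver. Foxo1 (chromosome 3, 52175758 to 52257530, plus strand) had 41.3, 38.7 and 59.0 CPM under PaPE-1 and 27.3, 22.6 and 34.3 CPM under E2, against 32.7, 44.9 and 41.0 CPM under vehicle. PaPE-1 libraries were all above the E2 libraries, while each group overlapped vehicle. The log2 fold change of PaPE-1 over E2 was 0.73 (SE 0.19, adjusted p 0.024), a 1.65-fold difference, and held in 13 of 16 alternatives. It lost the call without the first or second E2 library or the third PaPE-1 library (adjusted p 0.052, 0.11 and 0.093), and at a fold over 2. Against vehicle, E2 gave −0.49 (SE 0.19, adjusted p 0.082) and PaPE-1 gave 0.23 (SE 0.19, adjusted p 1.0). The E2 value passed without the third PaPE-1 library (adjusted p 0.038). In DIO liver the 9 libraries ran from 29.0 to 41.7 CPM with overlapping groups, with differences from vehicle of 0.15 under PaPE-1 and 0.06 under E2 (each SE 0.17).

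Foxo3 (chromosome 10, 42057841 to 42152691, minus strand), a related factor with overlapping targets, had no call. Its level in ob/ob liver was 35.4, 31.8 and 44.2 CPM under PaPE-1, 32.2, 28.1 and 34.3 CPM under E2 and 38.8, 32.9 and 32.5 CPM under vehicle. The log2 fold change was −0.14 for E2 (interval −0.43 to 0.16) and 0.10 for PaPE-1 (interval −0.20 to 0.39). In DIO liver the level ran from 39.0 to 63.1 CPM, both ends of it under PaPE-1.

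Igfbp1, which encodes a secreted protein that binds insulin-like growth factors and is one of the most insulin-sensitive mRNAs of liver, was higher in each E2 library of ob/ob mice than in any vehicle library, without passing the test. Igfbp1 (chromosome 11, 7147787 to 7152546, plus strand) had 233, 126 and 105 CPM under PaPE-1 and 240.0, 362 and 215 CPM under E2, against 209.7, 107 and 85.0 CPM under vehicle. The highest vehicle library was only just below the lowest E2 library. The log2 fold change of E2 against vehicle was 1.02 (SE 0.44, interval −0.01 to 2.05, adjusted p 0.13). It passed in limma voom (1.09, adjusted p 0.037) and without the first vehicle library (1.5, adjusted p 0.038), and in no other of the 16 alternatives. PaPE-1 differed from vehicle by 0.20, with a wide interval of −0.82 to 1.23.

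In DIO liver Igfbp1 varied so much within each group that the groups could not be compared with any precision. It had 24.3, 23.9 and 5.40 CPM under PaPE-1, 8.91, 60.8 and 44.0 CPM under E2 and 40.6, 9.74 and 16.9 CPM under vehicle. Within each group the highest library was 4.50-fold (PaPE-1), 6.83-fold (E2) and 4.17-fold (vehicle) above the lowest. The SE of the log2 fold change was 0.88 for PaPE-1 (−0.32) and 0.87 for E2 (0.76). The lowest library held 80 reads of Igfbp1.

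**Figure D2:**
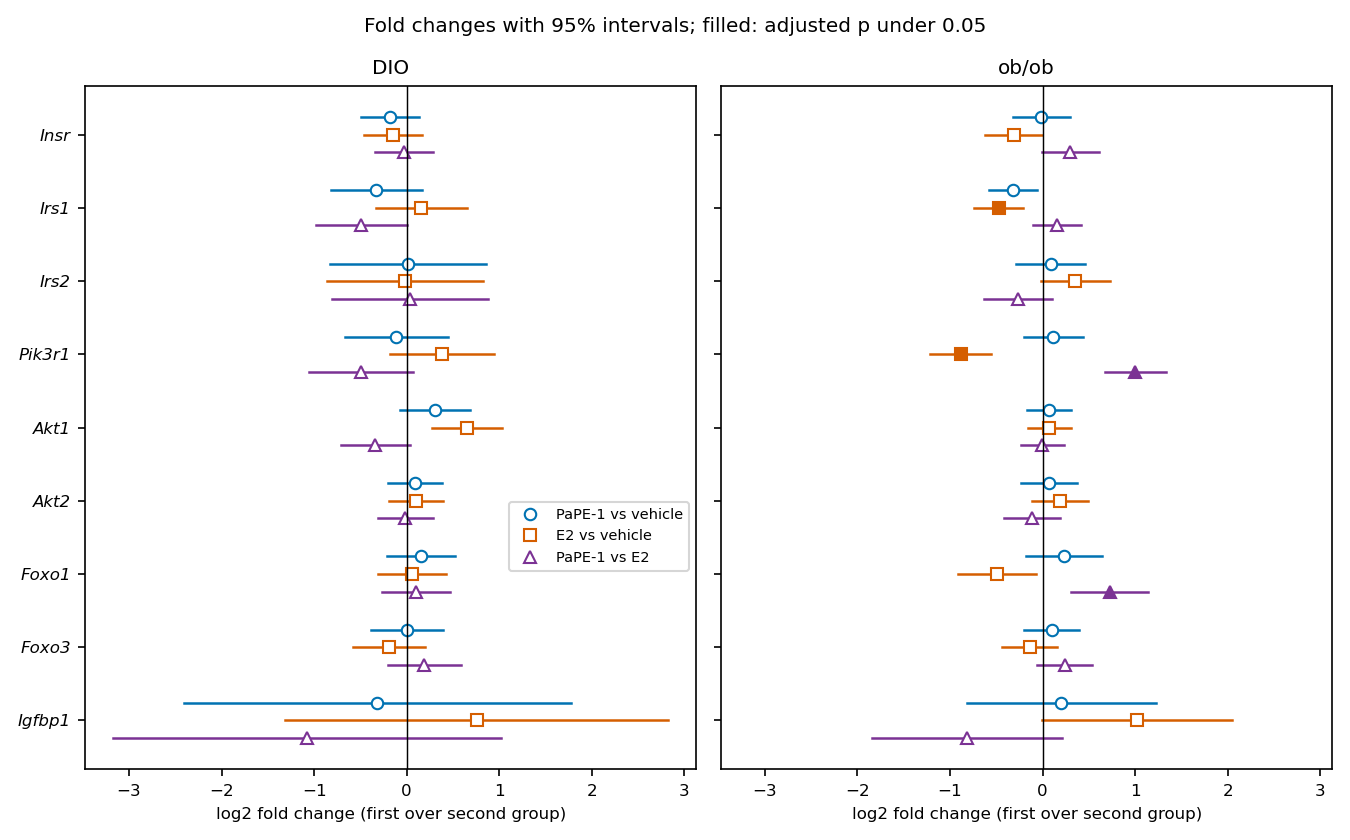
Log2 fold change of each member (horizontal axis) with its 95% interval for PaPE-1 against vehicle (circles), E2 against vehicle (squares) and PaPE-1 against E2 (triangles), in DIO (left) and ob/ob liver (right). Filled symbols, Irs1 and Pik3r1 under E2 and Pik3r1 and Foxo1 for PaPE-1 over E2 in ob/ob liver, have an adjusted p under 0.05; Igfbp1 has the widest intervals.

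Against vehicle, no member passed the test under PaPE-1 in either model. In ob/ob liver 0 of 9 members were called in edgeR, as were 0% of all genes. Irs1 was the 1 member with an unadjusted p under 0.05, beside 2.65% of all genes, and the 1 member without overlap, beside 5.78% of all genes. In DIO liver 0 of 9 members were called, as were 0% of all genes, and 0 had an unadjusted p under 0.05, beside 21.1% of all genes. Akt1 was the 1 member without overlap (11.1%), against 32.2% of all genes. DESeq2 and limma voom also called 0 members in both comparisons. Of all DIO genes, 530 passed as higher and 228 as lower in DESeq2, 467 and 306 in a fit of only the compared groups, and 0 in limma voom.

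E2 in DIO liver gave no call either. Of all genes 0% were called, and Akt1 was the 1 member with an unadjusted p under 0.05, beside 5.22% of all genes. Akt1 and Akt2 were the 2 members without overlap (22.2%), against 10.1% of all genes. Between PaPE-1 and E2 in DIO liver 0 members were called, beside 0.036% of all genes. None had an unadjusted p under 0.05, beside 17% of all genes, and none was without overlap, beside 18.2%. DESeq2 and limma voom called 0 members in these comparisons too.

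Whether a compound acted differently in the models was tested as an interaction over all 18 libraries. For E2, the effect in DIO minus that in ob/ob liver was 1.28 for Pik3r1 (SE 0.32, adjusted p 0.095), 0.65 for Irs1 (SE 0.26, adjusted p 0.22), 0.59 for Akt1 (SE 0.20, adjusted p 0.16) and 0.56 for Foxo1 (SE 0.27, adjusted p 0.29). All 4 had an unadjusted p under 0.05, beside 16.9% of all genes, and 0 passed over all genes, beside 0.0141%. The Pik3r1 difference passed in DESeq2 (1.29, adjusted p 0.012), which called 205 genes higher and 120 lower. Without the second DIO E2 library, both Pik3r1 (1.55, adjusted p 0.0025) and Akt1 (0.77, adjusted p 0.013) passed, among 533 genes called higher and 298 lower. For PaPE-1, 0 of 9 members passed (0% of all genes) and 0 had an unadjusted p under 0.05, beside 12.1% of all genes. DESeq2 and limma voom called 0 members in the PaPE-1 interaction.

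Further genes of the pathway were taken from lists by role. In ob/ob liver under E2, 86 tested pathway genes other than the members gave 5 higher and 11 lower calls relative to vehicle, with a median log2 fold change of −0.04 against 0.01 for all genes. That is 5.81% higher and 12.8% lower, beside 9.81% and 12.3% of all genes, so the share of lower calls was near that of all genes and the share of higher calls below it. The lower calls lay in the lists of signalling steps, brakes and FOXO cofactors, and the higher ones were Igf1, Igfals, Igfbp7, Pnpla3 and Sh2b2. Ppargc1a is in the list of FOXO targets as well as that of cofactors, and counts in each list below. Removing each library's trend on gene length kept 6 of the 11 lower calls and lost Gab1, Mtor, Pik3ca, Ppargc1a and Rps6kb1, while all 5 higher calls were kept. Pdpk1, Gsk3b, Pde3b, Ep300, Igf1, Igfals and Igfbp7 were called in all 16 alternatives at adjusted p under 0.05. The other 9 lost the call in some, with Sh2b2 called in 11 of 15 and the rest in 10 to 14 of 16. Between PaPE-1 and E2 the same 86 genes gave 10 calls higher under PaPE-1 and 4 lower, beside 10% and 7.45% of all genes, of which removal of the length trend lost Pik3ca and Pik3cb. No list had a called gene for PaPE-1 against vehicle in either model, nor in DIO liver in any comparison.

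Around the receptor, 1 of 8 tested genes rose and 2 fell under E2 in ob/ob liver, where 9.81% of all genes rose and 12.3% fell. Besides Irs1, Gab1, an adaptor that binds the same kinase, fell by 0.41 on the log2 scale (SE 0.12, adjusted p 0.032). Sh2b2, an adaptor of the insulin receptor expressed at 0.5 to 2.8 CPM in the 6 libraries compared, rose by 1.41 (SE 0.43, adjusted p 0.031), and lost the call without the first or second vehicle library or the second or the third E2 library (adjusted p up to 0.11). Insrr and Irs4 had too few reads to be tested.

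At the kinase, 4 of 8 tested genes fell and none rose, with a median of −0.50 for the list, where 12.3% of all genes fell. Besides Pik3r1, the catalytic subunits Pik3ca (−0.38, SE 0.11, adjusted p 0.024) and Pik3cb (−0.62, SE 0.16, adjusted p 0.018) fell. Pdpk1, which encodes PDK1, the kinase that activates AKT, had 18.5, 17.6 and 19.6 CPM under E2, against 33.7, 25.6 and 30.0 CPM under vehicle (−0.68, SE 0.14, adjusted p 0.0073). The same 4 genes were higher under PaPE-1 than under E2, where 10% of all genes were higher. The differences were 0.40 (Pik3ca), 0.55 (Pik3cb) and 0.66 (Pdpk1) beside the 1.002 of Pik3r1.

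Of 20 genes of AKT and its effectors, 4 fell under E2 and none rose, where 12.3% of all genes fell and 9.81% rose. Gsk3b, the glycogen synthase kinase that AKT inhibits, had 32.2, 36.3 and 33.0 CPM under E2, against 54.9, 50.6 and 61.6 CPM under vehicle (−0.72, SE 0.13, adjusted p 0.0043). Pde3b, a cyclic nucleotide phosphodiesterase that AKT activates, fell by 0.81 (SE 0.16, adjusted p 0.0057). Mtor (−0.48) and Rps6kb1, the S6 kinase (−0.52), fell as well. Against E2, PaPE-1 liver was higher for Gsk3b, Mtor and Pde3b, 3 of 20 genes, where 10% of all genes were higher.

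Among brakes on the pathway, of 14 tested, 1 fell under E2 and none rose, where 12.3% of all genes fell and 9.81% rose. It was Grb14, an inhibitor of the insulin receptor (−0.43, SE 0.13, adjusted p 0.027). Grb14 was also higher under PaPE-1 than under E2, by 0.43. The E2 call was lost without the second or the third vehicle library or the second or the third E2 library (adjusted p up to 0.12), and the PaPE-1 call in 4 of 16 alternatives (up to 0.14). Of 8 tested FOXO factors and cofactors, 2 fell under E2, beside 12.3% of all genes. They were Ep300, an acetyltransferase (−0.96, SE 0.17, adjusted p 0.0052), and Ppargc1a, the coactivator that works with FOXO1 on glucose production genes (−0.56, SE 0.17, adjusted p 0.031). Foxo1, Ep300 and Ppargc1a, 3 of the 8, were higher under PaPE-1 than under E2, where 10% of all genes were higher.

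**Figure D3:**
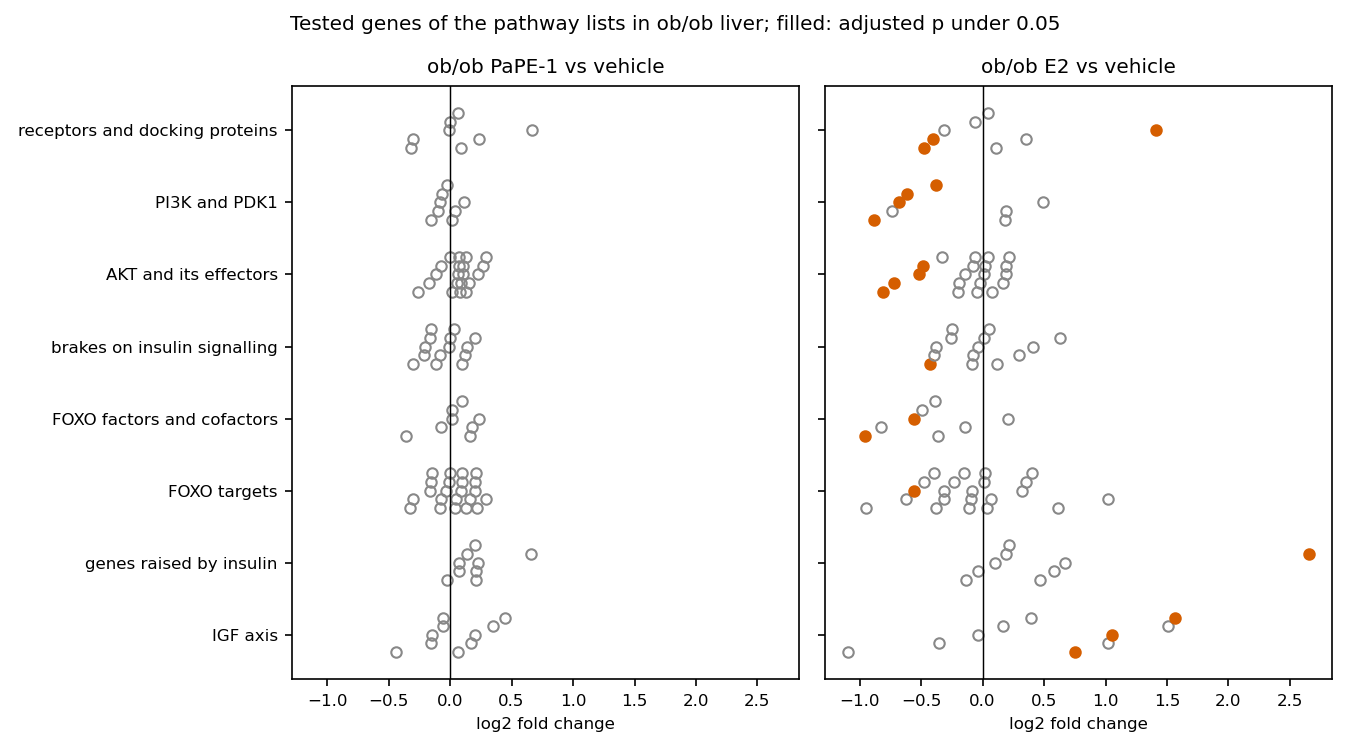
Log2 fold change (horizontal axis) of every tested gene of 8 pathway lists, members included, in ob/ob liver for PaPE-1 against vehicle (left) and E2 against vehicle (right), where each circle is a gene. Filled circles have an adjusted p under 0.05: under E2 there are 4 of 8 for PI3K and PDK1, all lower, and 3 of 10 for the IGF axis, all higher, and under PaPE-1 there is none.

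The list of FOXO targets, from which members were not removed, gave few calls. Under E2 in ob/ob liver 1 of 22 fell (Ppargc1a) and none rose, beside 12.3% and 9.81% of all genes. The median was −0.10, with 13 of 22 values below 0. At an unadjusted p under 0.05, 5 were lower and 1 higher, beside 19.9% and 17.8% of all genes. G6pc, the last enzyme of glucose release, had 257, 228.7 and 306 CPM under E2, against 287, 367 and 568 CPM under vehicle (−0.63, SE 0.43, adjusted p 0.33). Pck1, which encodes the enzyme that commits carbon to glucose production, stood at −0.23 (SE 0.20, adjusted p 0.43). Pdk4, which holds back glucose oxidation, had the sign of Igfbp1, at 58.8, 51.3 and 39.3 CPM under E2, against 52.5, 24.1 and 21.1 CPM under vehicle (0.61, SE 0.43, adjusted p 0.35). For PaPE-1 against E2, 2 of the 22 targets were higher and 0 lower, beside 10% and 7.45% of all genes. Among them Sesn3, which encodes a stress-induced regulator of mTOR, was higher under PaPE-1 than under E2 (1.24, SE 0.34, adjusted p 0.026). Its call was lost without the first or the third PaPE-1 library or the second or the third E2 library (adjusted p up to 0.12).

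Genes that insulin raises gave 1 higher call of 9 under E2 in ob/ob liver, with a list median of 0.21, where 9.81% of all genes rose. Pnpla3, a lipid droplet gene that follows insulin and feeding, rose by 2.65 (SE 0.59, adjusted p 0.023), and lost the call without the second or the third vehicle library or the second or the third E2 library (adjusted p up to 0.087). Srebf1, the factor through which insulin raises lipid synthesis, was at 365, 394 and 297 CPM under E2, against 377, 277 and 332 CPM under vehicle, a difference of 0.10 (SE 0.17). In DIO liver the list had no call, with a median of −1.01 and 8 of 9 values below 0 for PaPE-1 against vehicle, where the median of all genes was −0.03. In that comparison 0 of the 9 genes had an unadjusted p under 0.05, beside 21.1% of all genes. For PaPE-1 against E2, which uses the same PaPE-1 libraries, the median was −0.99 with 9 of 9 below 0, and for E2 against vehicle it was 0.22. Between PaPE-1 and E2, 0 of the 9 had an unadjusted p under 0.05, beside 17% of all genes. Srebf1 itself stood at 0.23 for PaPE-1 and 0.54 for E2 against vehicle in DIO liver. Its difference of PaPE-1 from E2 there was −0.31, and none of these Srebf1 values passed the test.

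The insulin-like growth factor axis had 3 higher calls of 10 under E2 in ob/ob liver, where 9.81% of all genes rose. Igf1, the main growth factor that liver secretes, had 442, 483 and 471 CPM under E2, against 303, 183 and 186 CPM under vehicle (1.06, SE 0.19, adjusted p 0.0043). Igfals, which stabilizes IGF1 in blood, rose by 1.57 (SE 0.19, adjusted p 0.0014) and Igfbp7 by 0.75 (SE 0.14, adjusted p 0.0047). Igf1, Igfals, Igfbp7 and Igfbp3 were all lower under PaPE-1 than under E2 (−0.89, −1.12, −0.91 and −0.54), where 7.45% of all genes were lower.

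Among the relatives of Igfbp1, no difference was called in DIO liver. Igfbp2, the other binding protein that liver makes in quantity in fasting, was at 58.5, 55.4 and 61.9 CPM under E2 in ob/ob liver, all above the vehicle libraries at 23.2, 7.16 and 30.8 CPM, without passing the test (1.5, SE 0.65, adjusted p 0.14). In DIO liver it was at 256 CPM or more in every library, and the PaPE-1 libraries at 691, 598 and 932 CPM were above all E2 libraries (315, 400.5 and 392 CPM) and all vehicle libraries (256, 368 and 400.3 CPM). That difference from vehicle was 1.12 (SE 0.21, adjusted p 0.071), and it passed in 6 of 16 alternatives, DESeq2 among them (1.13, adjusted p 0.00023). Igfbp4 in DIO liver was also above vehicle in every PaPE-1 library (0.69, SE 0.15, adjusted p 0.071), and passed in 5 of 16. In the same DIO libraries hepatocyte markers summed to 121521 to 147838 CPM under PaPE-1, against 95796 to 104247 CPM under vehicle, and stellate cell markers to 269 to 332 CPM under PaPE-1, against 384 to 452 CPM under vehicle. Their part in the Igfbp2 and Igfbp4 values was not tested. Igfbp3 in ob/ob liver under E2 was at 0.39 (adjusted p 0.099), Igfbp5 at −1.10 (adjusted p 0.27) and Igfbp6 at −0.36 (adjusted p 0.71), and none of them passed in DIO liver.

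The genes closest to Igfbp1 and Irs2 were sought over all 18 libraries, by the mean absolute difference in log2 CPM after each gene was centred on its mean in each model, among 13093 candidates. For Igfbp1 they were Pmvk (0.28), Fdps (0.32) and Pdk4 (0.34), where Igfbp1 itself deviated by 0.78 on average. Pmvk and Fdps encode enzymes of the cholesterol pathway. Pmvk lay on the same side of its mean as Igfbp1 in 16 of 18 libraries, Fdps in 13 and Pdk4 in 17. In DIO liver the second E2 library was the highest and the third PaPE-1 library the lowest for Igfbp1. Of these 3 genes, Pmvk alone passed the test under E2 in ob/ob liver (1.21, SE 0.31, adjusted p 0.028). The 3 were picked for closeness to Igfbp1 in these same libraries, so their shared sides and this test are no separate evidence on Igfbp1.

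For Irs2 the closest genes were Nr1d1 (0.16), Ago4 (0.17) and Calcoco1 (0.17), against a mean deviation of Irs2 of 0.29. Nr1d1 encodes a repressor of the circadian clock. It was lowest at 33.0 CPM in the third E2 library of DIO mice, which was also the lowest library of that model for Irs2 (9.10 CPM). Nr1d1 and Ago4 lay on the same side of their mean as Irs2 in 14 of 18 libraries each and Calcoco1 in 13. The time of day of collection is not given in the sources used here. The points share libraries and depth, and these distances are a description.

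**Figure D4:**
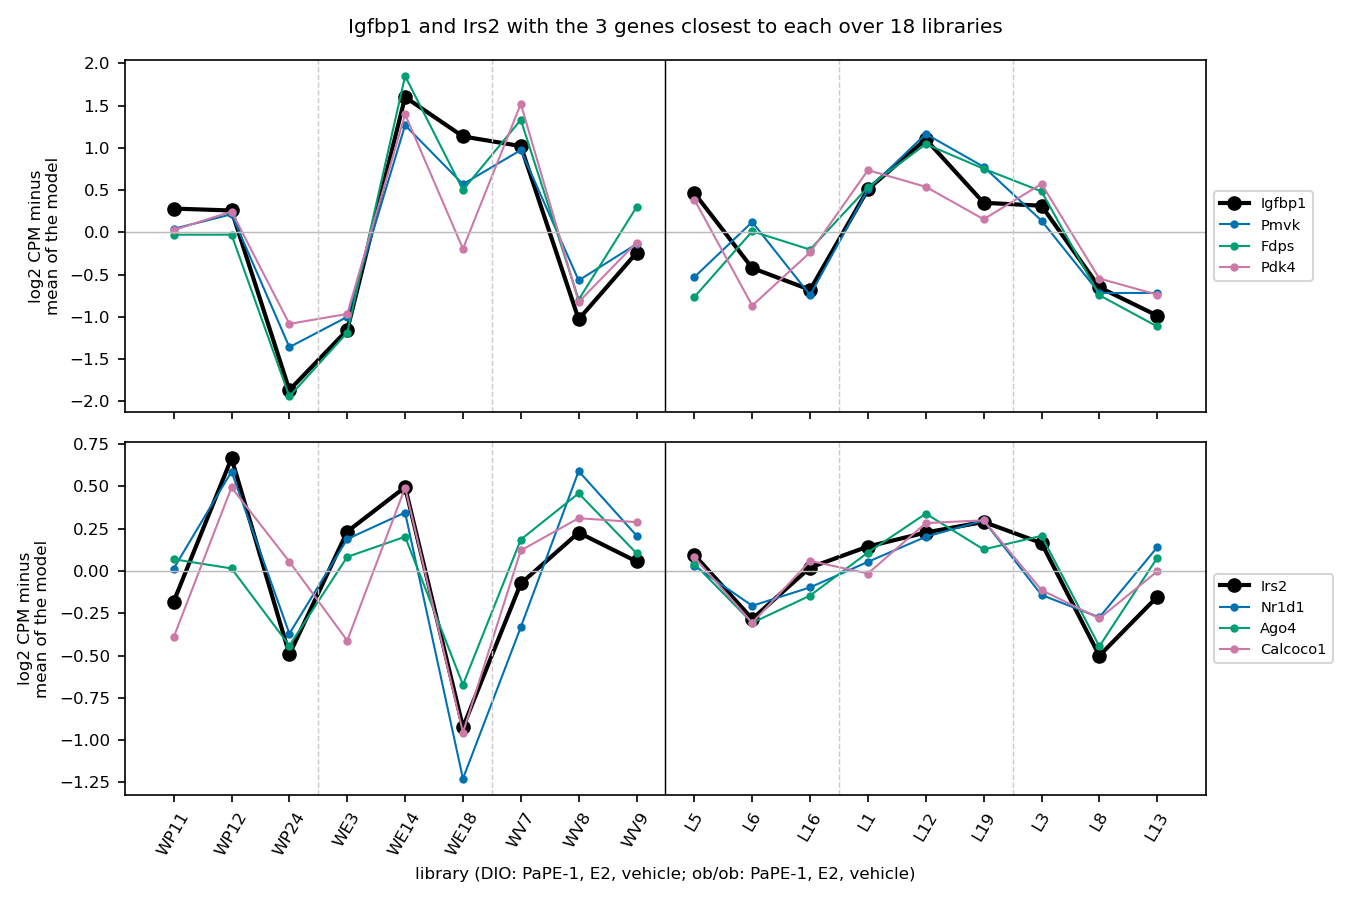
Log2 CPM minus the mean of the model (vertical axis) of Igfbp1 (top, black) and Irs2 (bottom, black) with the 3 closest genes of each in colour, in the 18 libraries by their labels (horizontal axis: DIO to the left and ob/ob to the right of the solid line, each with PaPE-1, E2 and vehicle). Lines join libraries only to guide the eye; Igfbp1, Pmvk and Fdps peak in WE14 and Pdk4 in WV7, and all 4 are lowest in WP24, all DIO.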

How the data were processed

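Liver RNA-seq of 18 mice was used. The authors deposited raw counts per gene for each model, made with STAR (2.7.6a) and featureCounts (2.0.0, strand option 2) on RefSeq genes of GRCm39. The deposited tables of the authors' own DESeq2 comparisons (fold changes, p-values, normalized counts) were not used. The paper's methods name another pipeline, and the sample records say that 2 libraries per group were sequenced where 3 are present, so the tables were used as they stand.

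Counts were analysed in R (4.3.3). edgeR (4.0.16) filtered genes by filterByExpr, scaled by TMM and ran its robust quasi-likelihood test over the 9 libraries of each model, or over 18 for interactions, with Benjamini-Hochberg adjustment over all genes tested. The SE is the log2 fold change divided by the square root of F. Likeness used log2 CPM with a prior count of 2. A trend on gene length was removed by loess (span 0.5).

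Alternatives were DESeq2 size factors, DESeq2 (1.42.0), limma voom (3.58.1), no filter, at least 10 counts in every library, removal of the length trend, only the compared groups, a fold over 2 with unadjusted p under 0.05, and each library left out. The edgeR test was tried on simulated counts for E2 against vehicle in each model, and the other steps were not.

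All 9 members were named, whatever their values, with G6pc, Pck1, Pdk4, Srebf1 and Igfbp2 to Igfbp7. Up to 4 others per list and comparison were named by smallest adjusted p under 0.05, and 3 genes closest to Igfbp1 and to Irs2. The members and lists were chosen with earlier results of these data known, and 2 genes of the pathway lists are not reported here. Promoter sequences and motif counts used RefSeq promoters on GRCm38.p6, and the promoter of Insr was not used here. Positions of genes are from GRCm39 and were not converted.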

Additional observations from a re-analysis of the deposited data

How the results depend on the processing

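The lowest library of any member held 80 reads, and whether depth or the number of livers limited the calls was not tested. No paired analysis was possible because the groups share no animal number in their labels. The cause of each shift below was not tested.

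In ob/ob liver, E2 against vehicle called 1 member higher in limma voom (Igfbp1), beside 1325 of 13433 genes. It called 1 lower with the length trend removed (Pik3r1), beside 1403 genes, and 0 lower at a fold over 2, beside 350. PaPE-1 against E2 called 1 higher at that fold (Pik3r1), beside 277 of 13433 genes. The E2 interaction called 1 member (Pik3r1) in DESeq2, beside 205 of 14171 genes higher and 120 lower. At a fold over 2 with unadjusted p under 0.05 it also called 1, beside 244 higher and 444 lower. With each library left out, member calls in DIO liver ran from 0 to 1 higher for E2 against vehicle, beside 0 to 67 of all genes. For PaPE-1 against E2 they ran from 0 to 2 lower, beside 0 to 435 genes. In ob/ob liver E2 against vehicle gave 0 to 1 higher and 1 to 3 lower, beside 344 to 1514 and 434 to 1963 genes. PaPE-1 against E2 gave 1 to 2 higher there, beside 292 to 1750 genes. The E2 interaction gave 0 to 2, beside 0 to 533 genes higher and 0 to 298 lower. These fits tested 14084 to 14187 genes in DIO liver, 13645 to 13745 in ob/ob liver and 14399 to 14468 for interactions. Other counts of members called were the same.

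Values without a call changed sign by more than their SE as follows, and other sign changes were smaller than the SE. With the length trend removed, PaPE-1 against vehicle in DIO liver became 0.11 for Insr, 0.20 for Pik3r1 and −0.19 for Igfbp7, PaPE-1 against E2 became 0.19 for Insr and 0.16 for Akt2, and the PaPE-1 interaction 0.11 for Insr and −0.016 for Igfbp7. With each library left out, DIO values for PaPE-1 against vehicle ran from −0.40 to 0.23 (Irs2), −0.56 to 0.39 (Igfbp5), −0.63 to 1.35 (Igfbp6) and −1.08 to 0.28 (Pdk4). For E2 against vehicle they ran from −0.19 to 0.34 (Irs1) and −1.08 to 0.86 (Pdk4), and for PaPE-1 against E2 from −0.38 to 0.32 (Irs2), −0.97 to 0.39 (Pdk4), −0.027 to 0.61 (Pck1) and −1.29 to 0.95 (Igfbp6). In ob/ob liver PaPE-1 against vehicle ran from −0.092 to 0.18 (Akt2), −0.047 to 0.20 (Foxo3), −0.40 to 0.50 (Pdk4), −0.42 to 0.77 (Igfbp2), −0.25 to 0.029 (Igfbp3), −0.88 to 0.30 (Igfbp5) and −0.41 to 0.90 (Igfbp6). E2 against vehicle ran from −1.13 to 0.60 (Igfbp6) and PaPE-1 against E2 from −0.076 to 0.22 (Srebf1). Interactions ran from −0.58 to 1.42 (Igfbp6, PaPE-1) and −1.68 to 0.27 (Pdk4, E2).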
